A study of Mus musculus with 195 samples.

Results

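The 10 genes Dusp6, Dusp4, Spry2, Spry4, Egr1, Fos, Ier3, Phlda1, Etv4 and Etv5 are established transcriptional targets of ERK, the last kinase of the RAS, RAF, MEK and ERK cascade. They were taken by name, with earlier results of these data known, and all 10 were found among the 19736 genes in the table of molecule counts per gene. The counts came from BATSeq, a method that captures the 3′ end of polyadenylated RNA and labels each captured molecule with a unique molecular identifier, so that a value is a number of molecules and not of reads.

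Growth factors such as FGF and EGF activate receptor tyrosine kinases, which pass the signal through RAS and RAF to the kinase MEK, and MEK phosphorylates ERK. Active ERK phosphorylates transcription factors that switch on immediate early genes within minutes, and it raises its own inhibitors, the DUSP phosphatases and the Sprouty proteins, in a negative feedback. In mouse embryonic stem cells FGF4 made by the cells themselves keeps ERK active and primes them to leave self-renewal, and blocking MEK with PD0325901 helps to hold them in the ground state.

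The populations were cultures of 1 mouse embryonic stem cell line, 46C, which was derived from E14tg2a and carries GFP at the Sox1 locus, and of neural stem cells made from it. ESC-2i cells grew without serum in medium with the supplements N2 and B27 and LIF at 10 ng/ml. This medium also held PD0325901 at 1 µM and the GSK3 inhibitor CHIR99021 at 3 µM. ESC-FCS cells grew in a different basal medium with 10% fetal bovine serum and LIF at 10 ng/ml, with neither inhibitor. NSC also grew in medium with N2 and B27 and, per the study's methods, with EGF and bFGF, which are ligands of the pathway. All cells were detached with Accutase, stained with Hoechst and sorted as small G1 cells. The table of genes holds 33 ESC-2i cells, 33 ESC-FCS cells and 41 NSC. A separate set of ESC-FCS cells (ESC-FCS control, 42 cells with at least 1000 molecules), 1 pool of 48 ESC-FCS cells and 2 pools of 48 ESC-2i cells repeat the contrast of the media. The control cells and the ESC-FCS pool were made on the same day.

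The media of the stem cells differ in PD0325901, in CHIR99021, in serum, and in basal medium and supplements together. The parts of these in any difference cannot be told apart. Neither the labels nor the methods name replicate cultures, and each population was treated as 1 sample. No test between populations was therefore made. Levels are given as molecules per 10000 molecules on genes (written "per 10000"), summed over the cells of a population, and intervals are exact 95% intervals that cover counting error only.

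The libraries held 368362 molecules on genes in ESC-2i cells, 226683 in ESC-FCS cells, 151877 in NSC, 223055 in the control cells, 179155 in the ESC-FCS pool and 479483 and 494799 in the ESC-2i pools. The median cell held 10864 molecules in ESC-2i, 6375 in ESC-FCS, 3282 in NSC and 4723.5 in the control. Mitochondrial genes took 5.09% of the NSC molecules and at most 1.95% elsewhere. The pools of ESC-2i cells were sequenced to 3.27 and 4.95 reads per molecule and the 3 main populations to between 11.1 and 13.2. The 10 listed embryonic stem cell markers summed to 25.2 to 38.4 per 10000 in the 6 stem cell libraries and to 1.32 in NSC, where Nanog and Pou5f1 were at 0. Pou5f1 was also low in the stem cells, with 19 molecules in ESC-2i cells and 4 in ESC-FCS cells. The neural stem cell list summed to 51.8 in NSC and at most 5.05 elsewhere, although Pax6 had no molecule in NSC. All 48 pairs of library batch and cell barcode in ESC-2i cells were used again for ESC-FCS control cells, and no pair was shared within the main set.

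BATSeq reads the last bases of a transcript, and the annotated ends of 4 members are printed because they are what was counted for Dusp6, Fos and Etv5, and because Dusp4 was often counted elsewhere. These are the last 30 bases of the GENCODE transcript on GRCm38, 5′ to 3′, with the hexamer AATAAA that guides cleavage in capitals.
Dusp6 (chr10:99267460-99267489, + strand): ttattAATAAAtaactattttggctattga
Dusp4 (chr8:34819865-34819894, + strand): cttttgAATAAAaagatacgcatatgcctg
Fos (chr12:85477244-85477273, + strand): ttgtcAATAAAagcatttaagttgaatgcg
Etv5 (chr16:22381309-22381338, − strand): tacAATAAAgaagattgctttccttacgca
In these 4 transcripts AATAAA ended 18 to 21 bases before the annotated end. Of the 8 members whose ends were read, Spry2 and Ier3 had neither AATAAA nor ATTAAA in the last 30 bases.

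Promoter windows are shown for a phosphatase, a Sprouty gene and an immediate early gene because all 3 genes were higher in NSC than in either of the main stem cell populations and their windows differ in motifs. RefSeq (GRCm38.p6) gave 6 windows for 5 members, each from 250 bases before to 50 bases after a start. Capitals mark CCGGAA, a core that ETS factors can bind, and TGACG, the core of a cAMP response element, searched on both strands.
Dusp6 (chr10:99262981-99263280, + strand): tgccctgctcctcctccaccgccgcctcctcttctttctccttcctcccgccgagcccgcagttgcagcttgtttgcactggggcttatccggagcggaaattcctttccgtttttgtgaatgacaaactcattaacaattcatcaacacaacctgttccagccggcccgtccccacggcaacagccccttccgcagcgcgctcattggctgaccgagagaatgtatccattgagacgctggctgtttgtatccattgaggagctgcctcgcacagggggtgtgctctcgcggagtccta
Spry2 (chr14:105896770-105897069, − strand): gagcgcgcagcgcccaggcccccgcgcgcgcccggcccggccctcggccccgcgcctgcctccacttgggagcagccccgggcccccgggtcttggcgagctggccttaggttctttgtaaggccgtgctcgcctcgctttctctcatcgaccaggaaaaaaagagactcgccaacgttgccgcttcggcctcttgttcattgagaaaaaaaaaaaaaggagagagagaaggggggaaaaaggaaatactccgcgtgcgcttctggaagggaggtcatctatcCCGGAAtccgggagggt
Fos (chr12:85473640-85473939, + strand): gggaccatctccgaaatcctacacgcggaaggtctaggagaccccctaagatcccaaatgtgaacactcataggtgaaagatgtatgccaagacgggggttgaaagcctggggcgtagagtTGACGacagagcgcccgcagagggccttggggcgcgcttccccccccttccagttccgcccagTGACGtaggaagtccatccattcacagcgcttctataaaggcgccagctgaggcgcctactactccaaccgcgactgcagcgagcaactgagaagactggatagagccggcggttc
CCGGAA was found in 1 of the 6 windows, that of Spry2, and in 14.9% of 32851 promoters of this length. TGACG was found in 1 window, that of Fos, at 2 places, and in 20.8% of all promoters. Neither TGANTCA (7.81% of promoters) nor the CArG box (1.63%) was found in the 6 windows, which says only that these letters are not in them.

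Dusp6 (chr10:99263231-99267489) encodes a cytoplasmic phosphatase that is selective for ERK, and its RNA is widely used as a readout of ERK activity. It had 0 molecules in the 33 ESC-2i cells (upper limit 0.1001 per 10000), 9 in ESC-FCS cells (0.397 per 10000, interval 0.182 to 0.754) and 74 in NSC (4.87, interval 3.83 to 6.12). The control cells held 41 molecules (1.84), the ESC-FCS pool 19 (1.06), and the ESC-2i pools 13 (0.271) and 27 (0.546). ESC-2i cells were lowest and NSC highest, but 1 of the ESC-2i pools lay above the main ESC-FCS cells, so the media overlapped for this gene. With ESC-2i set to a floor of 3 molecules over the group, Dusp6 was 4.88-fold lower there than in ESC-FCS cells. It was 22.6-fold lower than in the control cells and 13.0-fold lower than in the ESC-FCS pool. The exact intervals, which cover counting error in both groups, started at 3.21-fold, 17.5-fold and 9.60-fold.

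Dusp4 (chr8:34807297-34819894) encodes a nuclear phosphatase of MAP kinases. It had 0 molecules in ESC-2i cells, 4 in ESC-FCS cells (0.176 per 10000), 0 in NSC (upper limit 0.243), 15 in the control cells (0.672), 24 in the ESC-FCS pool (1.34) and 6 and 8 in the ESC-2i pools (0.125 and 0.162). The levels of the 3 ESC-FCS libraries were all above those of the 3 ESC-2i libraries, but their intervals overlapped. The interval was 0.0481 to 0.452 in ESC-FCS cells and 0.0698 to 0.319 in ESC-2i pool 2. The upper limit in NSC lay above the level of the ESC-FCS cells, so no direction can be given for NSC.

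Spry2 (chr14:105891947-105896819) encodes a membrane-associated antagonist of signalling from receptor tyrosine kinases. It had 7 molecules in ESC-2i cells (0.190 per 10000), 8 in ESC-FCS cells (0.353), 25 in the control cells (1.12), 12 in the ESC-FCS pool (0.670), and 12 (0.2503) and 8 (0.162) in the ESC-2i pools. NSC held 22 molecules (1.45), the highest level of the 7 libraries. The ESC-2i and ESC-FCS libraries did not overlap, although in the main cells the difference of 1.86-fold had an interval (0.588 to 6.02) that reached past 1.

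Spry4 (chr18:38586247-38601415, − strand), another Sprouty gene, had 1 molecule in ESC-2i cells (0.0271 per 10000) and 13 in ESC-FCS cells (0.573), a ratio of 21.1-fold lower with an interval from 3.17 to 898. The control cells held 5 (0.224), the ESC-FCS pool 10 (0.558), the ESC-2i pools 4 (0.0834) and 1 (0.0202), and NSC 9 (0.593). Again the 3 ESC-2i libraries lay below the 3 ESC-FCS libraries. A single ESC-FCS cell carried 7 of the 13 molecules, and without the highest cell ESC-FCS held 6 molecules (0.274) and ESC-2i none.

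Egr1 (chr18:34859823-34864984) encodes a zinc finger transcription factor of the immediate early response. In ESC-2i cells 2 molecules were found (0.0543 per 10000), in ESC-FCS cells 4 (0.176), in the control cells 7 (0.314), and 12 in the ESC-FCS pool (0.670). The ESC-2i pools held 2 (0.0417) and 0. In NSC the level was 6.85 per 10000 (104 molecules, interval 5.60 to 8.30). All 3 ESC-2i libraries were below all 3 ESC-FCS libraries, and NSC was above every one of them.

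Fos (chr12:85473890-85477273), the AP-1 subunit, had 7 molecules in ESC-2i cells (0.190 per 10000), 3 in ESC-FCS cells (0.132), 5 in the control cells (0.224), 3 in the ESC-FCS pool (0.167) and 1 and 3 in the ESC-2i pools (0.0209 and 0.0606). It held 46 molecules in NSC (3.03, interval 2.22 to 4.04). The main ESC-2i cells overlapped the ESC-FCS libraries, and all 3 ESC-FCS molecules came from 1 cell.

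Ier3 (chr17:35821684-35822923), an immediate early gene of stress and survival responses, had 9 molecules in ESC-2i cells (0.244 per 10000), 4 in ESC-FCS cells (0.176), 7 in the control cells (0.314), 8 in the ESC-FCS pool (0.447) and none in NSC. The ESC-2i pools held 12 (0.2503) and 3 (0.0606). Phlda1 (chr10:111506286-111508645), which encodes a protein with a pleckstrin homology-like domain, held 0 to 7 molecules in each library and at most 0.263 per 10000, in NSC. Neither gene separated the media.

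Etv5 (chr16:22381309-22439719, − strand), an ETS factor of the PEA3 group, was the most abundant member in every stem cell library and did not follow the phosphatases. It had 149 molecules in ESC-2i cells (4.04 per 10000, interval 3.42 to 4.75), 74 in ESC-FCS cells (3.26, interval 2.56 to 4.10), 96 in the control cells (4.30), 70 in the ESC-FCS pool (3.91), and 338 (7.05) and 376 (7.60) in the ESC-2i pools. NSC held 98 molecules (6.45, interval 5.24 to 7.86). ESC-2i was the higher of the media in 8 of the 9 pairs of libraries, but in the main cells the 1.24-fold difference had an interval from 0.932 to 1.66.

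Etv4 (chr11:101769742-101785371, − strand), another factor of the PEA3 group, was rare. It had 5 molecules in ESC-2i cells (0.136 per 10000), 4 of them in 1 cell, 2 in ESC-FCS cells (0.0882), 2 in the control cells (0.0897), 4 in the ESC-FCS pool (0.223) and 7 in NSC (0.461). The ESC-2i pools held 7 (0.146) and 13 (0.263). Its media overlapped.

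**Figure D1:**
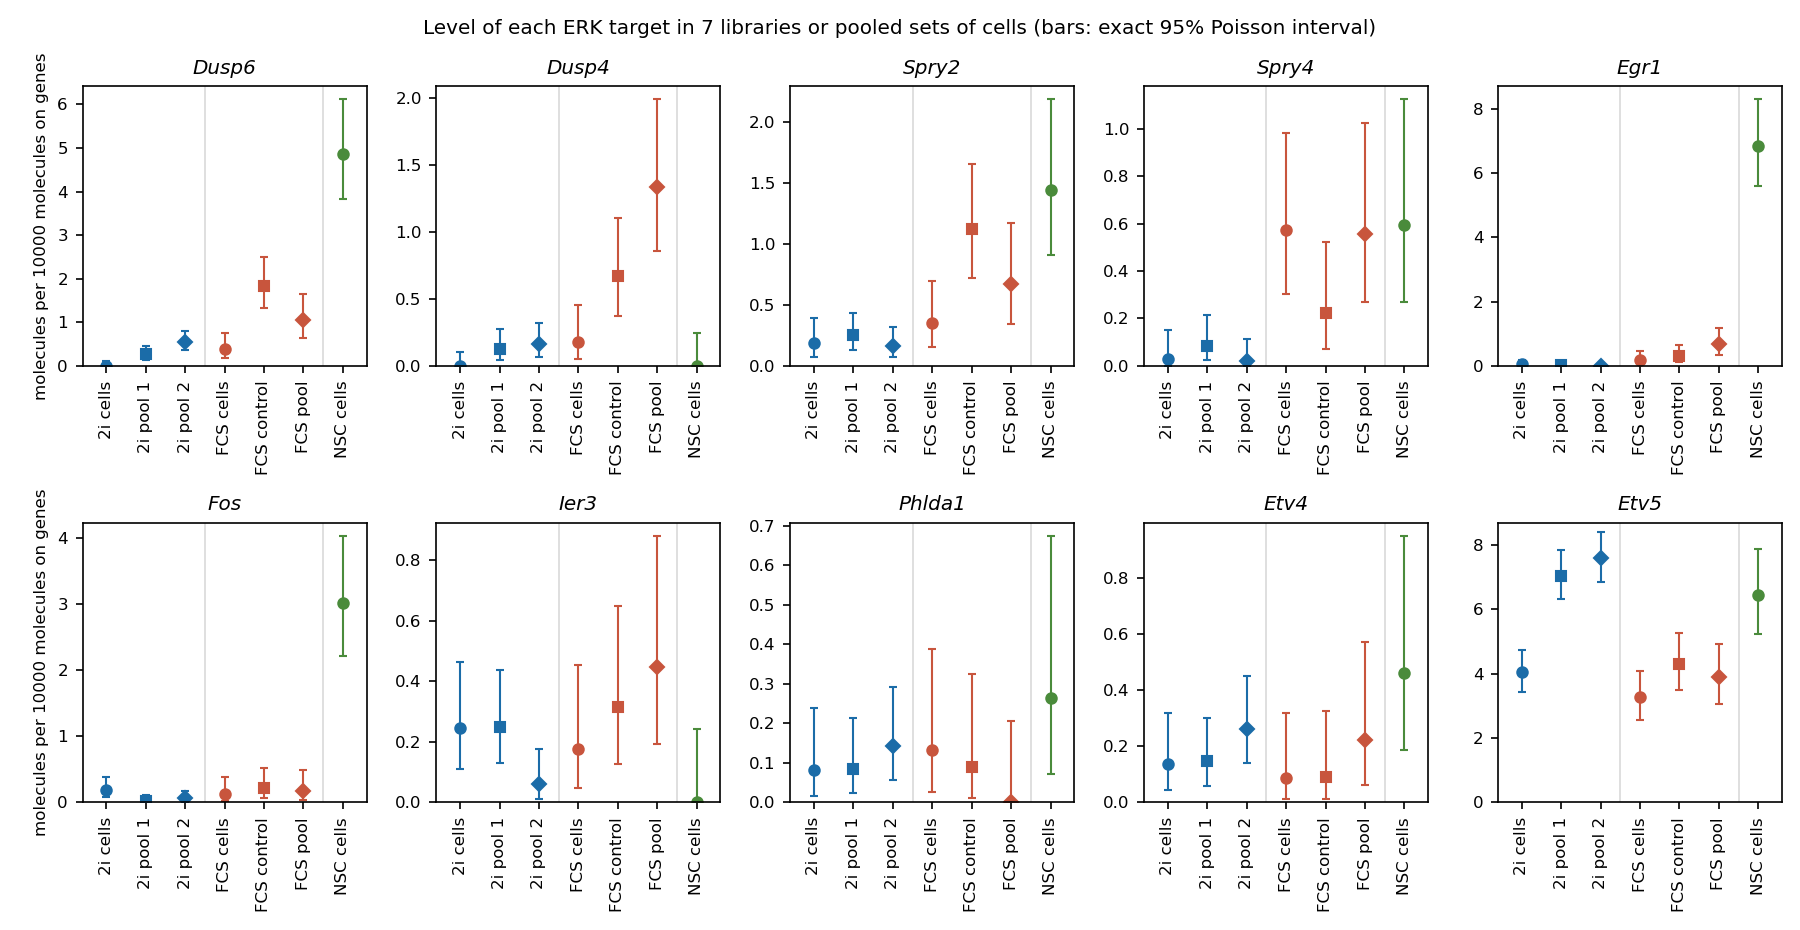
Level of each of the 10 genes (molecules per 10000 molecules on genes, linear axis with its own range in each panel) in the 7 libraries, ESC-2i in blue, ESC-FCS in red and NSC in green, with exact 95% Poisson intervals for counting error as bars. ESC-2i libraries lie below ESC-FCS libraries for Dusp4, Spry2, Spry4 and Egr1, Etv5 stays between 3.26 and 7.60 in all 7, and NSC are highest for Dusp6, Egr1 and Fos.

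The first question was whether the genes were lower where MEK was blocked. Between the single cells of the main set, 4 of the 10 members were at least 2-fold lower in ESC-2i than in ESC-FCS (Dusp6, Dusp4, Spry4 and Egr1) and none was at least 2-fold higher, and the interval excluded 1 for Dusp6, Dusp4 and Spry4. These counts rest on 4 to 14 molecules of each gene in the 2 populations together. Among all 5007 genes with at least 20 molecules in the 2 populations together, 8.17% were at least 2-fold lower and 14.5% at least 2-fold higher. Only Etv5 of the members reached 20 molecules there, and it was neither. Spry2 and the 4 named genes were lower in all 4 pairs of an ESC-2i and an ESC-FCS library batch. Of all genes tested, 7.31% were both at least 2-fold lower and lower in all 4 pairs. This share is not a like measure, because it is of genes with at least 20 molecules. It also asks for 2-fold, which Spry2 (1.86-fold) did not reach. The order of the batches rested on few molecules, for Egr1 1 and 1 in ESC-2i against 3 and 1 in ESC-FCS. With the control cells in place of the main ESC-FCS cells, 5 members were at least 2-fold lower in ESC-2i cells and none higher. These were Spry2 and the 4 named genes, beside 18.5% and 18.6% of genes. With the ESC-FCS pool it was again 5 and none, beside 25.5% and 16.8%. Of these 5, only Dusp6 and Spry2 held at least 20 molecules with the control cells, and only Dusp4 with the ESC-FCS pool. Without the cell that held the most molecules of each gene, 2 members stayed at least 2-fold lower. Dusp4 and Egr1 then held 3 or fewer molecules in both populations, so no fold was given for them.

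A scaling to the ERCC spike-ins changes several directions. Spike-ins took 7.90% of the molecules of ESC-2i cells and 3.99% of those of ESC-FCS cells, and scaling by them lowered every log2 ratio of ESC-2i to ESC-FCS by 1.04, against shifts of 0.05 with median-of-ratios factors and 0.09 with TMM. Etv5 then had a log2 ratio of −0.73, Ier3 of −0.57, Fos of −0.52 and Etv4 of −0.42, each above 0 in the scaling per molecule on genes. Dusp6, Dusp4, Spry2, Spry4 and Egr1 were lower in ESC-2i cells under all of these scalings.

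The pools repeated the contrast with more cells in 1 reaction. A pool gives a sum over its cells, in which fewer expressing cells and less RNA per cell cannot be told apart. Against the ESC-FCS pool, 7 of the 10 members were at least 2-fold lower in the ESC-2i pools. Egr1 was 32.6-fold lower (interval 7.26 to 300.2), Spry4 10.9-fold (3.39 to 40.6), Dusp4 9.32-fold (4.63 to 19.5), Fos 4.08-fold (0.597 to 24.1), Spry2 3.26-fold (1.45 to 7.01), Ier3 2.90-fold (1.06 to 7.29) and Dusp6 2.58-fold (1.41 to 4.57). The interval of Fos thus included 1, on 4 molecules in the ESC-2i pools. Etv5 was 1.88-fold higher in the ESC-2i pools (1.47 to 2.43), and Etv4 was 1.09-fold lower with an interval from 0.270 to 3.25.

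Of the 6 members with at least 20 molecules in these pools, 4 were at least 2-fold lower (Dusp6, Dusp4, Spry2 and Ier3) and none was higher, where 19.4% of 8013 genes were at least 2-fold lower and 31.9% at least 2-fold higher. Leaving out 1 ESC-2i pool ended 2 of these calls: Dusp6 was at a log2 ratio of −0.96 without pool 1, and Ier3 at −0.84 without pool 2 but −2.88 without pool 1. The 7 members lower of all 10 became 5 without either pool. The median log2 ratio was −1.45 over these 6 members and 0.36 over all genes tested. Against the ESC-FCS control cells, 4 of the 6 tested members were at least 2-fold lower and 1 (Etv4) at least 2-fold higher, beside 16.8% and 39.9% of 8064 genes, with medians of −1.59 and 0.63. Etv4 was 2.29-fold higher (0.556 to 20.2), and Etv5 1.70-fold higher (1.37 to 2.13). Dusp6 was 4.48-fold lower than in the control cells (2.82 to 7.10), Dusp4 4.68-fold (2.11 to 10.5), Spry2 5.46-fold (2.91 to 10.4) and Egr1 15.3-fold (2.91 to 151). Both contrasts share the ESC-2i pools and are not independent of each other.

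**Figure D2:**
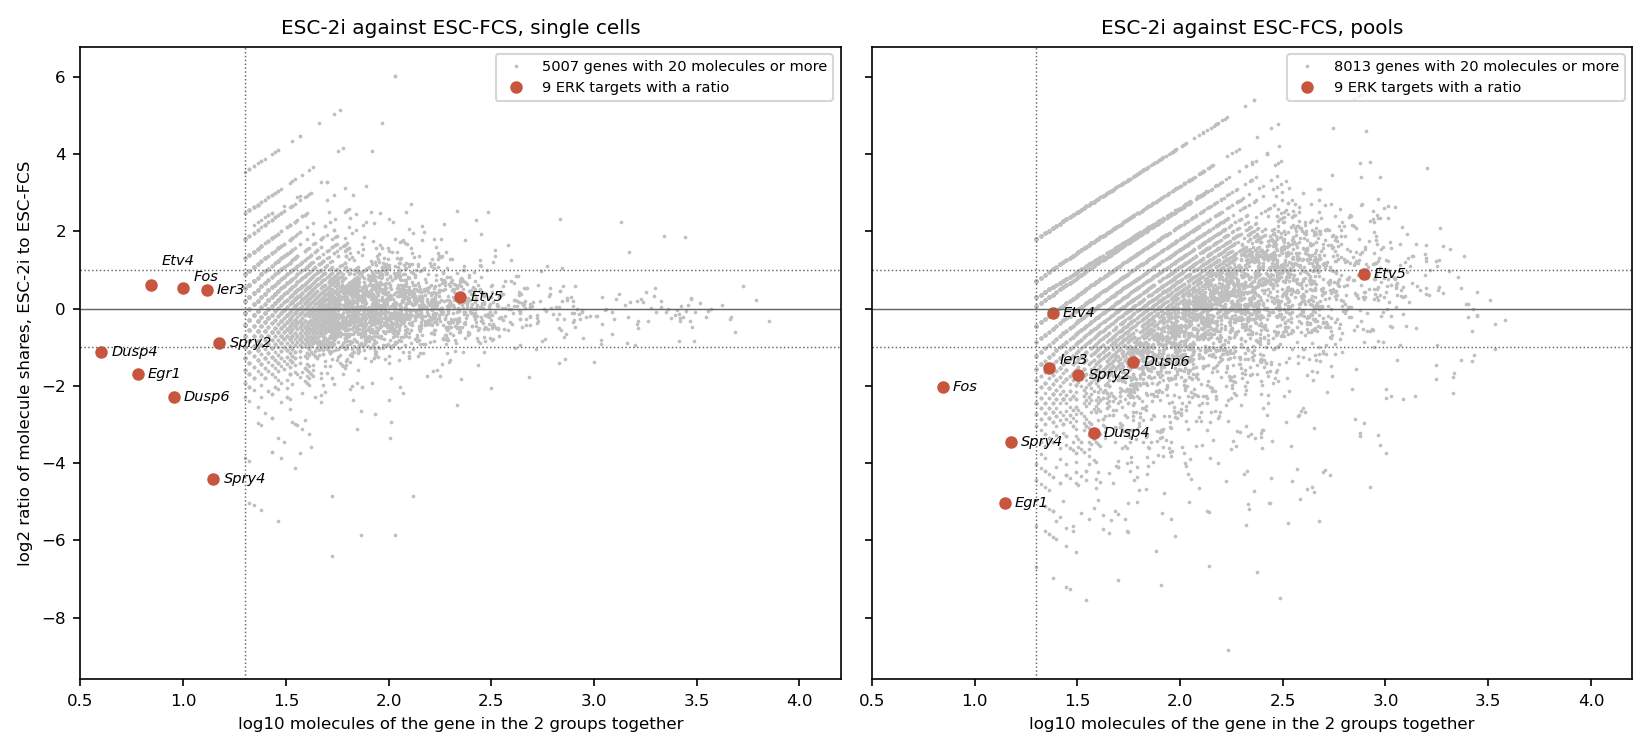
Log2 ratio of ESC-2i to ESC-FCS against the log10 number of molecules of a gene in both groups, in single cells (left) and in pools (right), for all genes with at least 20 molecules (grey) and for the 9 members with a ratio (red). Only Etv5 lies right of the 20-molecule line in single cells, and in the pools Dusp6, Dusp4, Spry2, Ier3, Etv4 and Etv5 do, the first 4 of these below the 2-fold line.

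**Figure D3:**
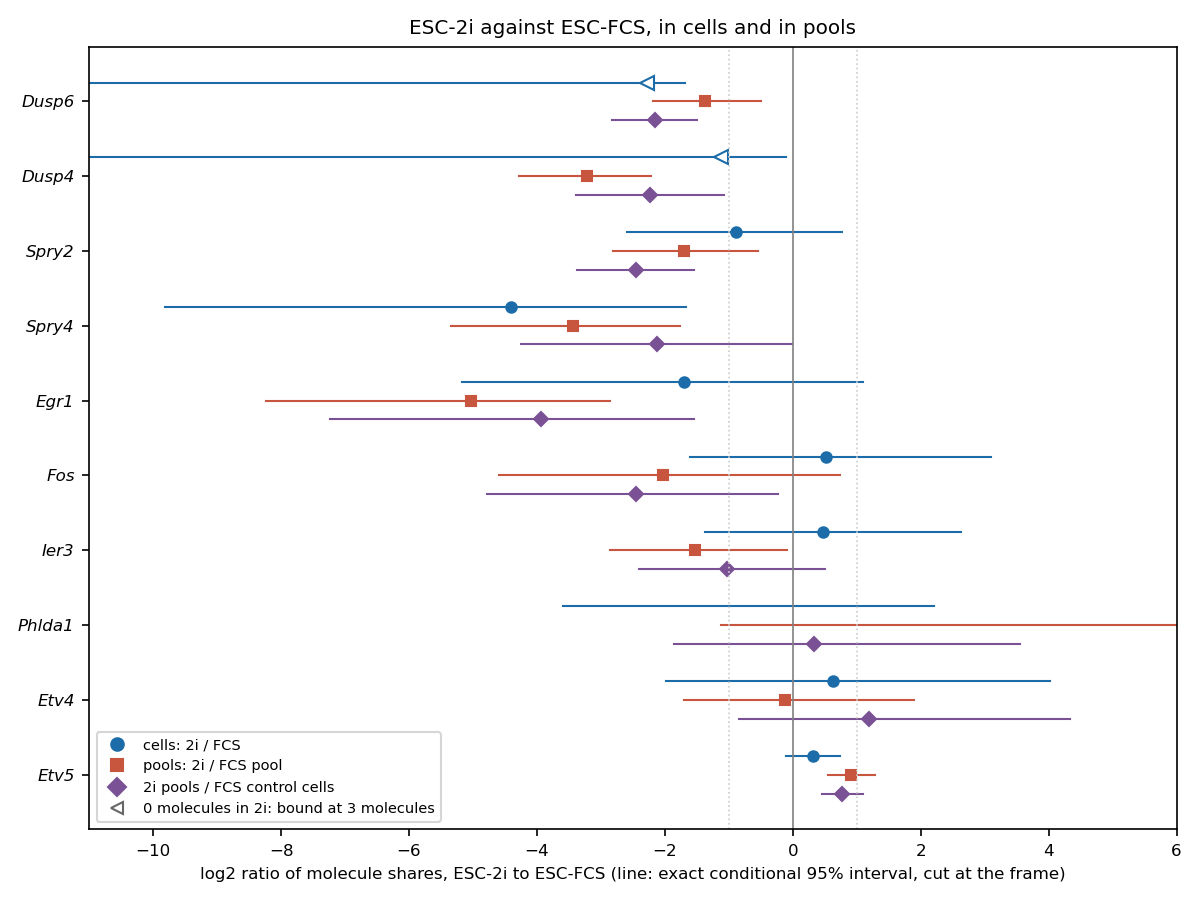
Ratio of the level in ESC-2i to that in ESC-FCS for each of the 10 genes (log2 scale), for cells against cells, for the ESC-2i pools against the ESC-FCS pool and for the same pools against the control cells, with exact conditional 95% intervals for counting error as lines and an open triangle at the bound of 3 molecules where ESC-2i had none. Dusp6, Dusp4, Spry2, Spry4 and Egr1 lie below 0 in every contrast drawn, and Etv5 lies above 0.

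Over the 9 pairs of an ESC-2i library (cells, pool 1 and pool 2) and an ESC-FCS library (cells, control and pool), Dusp4, Spry2, Spry4 and Egr1 were lower in ESC-2i in all 9. Dusp6 was lower in 8, the exception being pool 2 against the main ESC-FCS cells, and Fos and Ier3 were lower in 7. Phlda1 was lower in 4, Etv4 in 2 and Etv5 in 1. Among the 9 members with at least 20 molecules over these 6 libraries, 4 were therefore lower in all 9 pairs and none was higher in all 9. Over the 9728 genes with as many molecules, 8.48% were lower in all 9 pairs and 14.6% higher in all 9. The 9 pairs reuse 6 libraries and are a description of these libraries. They order levels only, and for Dusp4, Spry2, Spry4 and Egr1 the intervals overlapped in some pairs.

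Differences within 1 medium were of a like size for some members and have to be set beside those between media. In ESC-FCS medium, the control cells exceeded the main cells 4.63-fold for Dusp6 (2.22 to 10.8), 3.81-fold for Dusp4 (1.21 to 15.8) and 3.18-fold for Spry2 (1.39 to 8.15), and these were the 3 members at least 2-fold higher, where 15.9% of genes were. Spry4 was 2.56-fold lower in the control cells (0.856 to 9.17), the 1 member at least 2-fold lower beside 9.23% of genes. From the control cells to the pool of the same day, Spry4, Egr1 and Etv4 were at least 2-fold higher (11.2% of genes) and none was 2-fold lower (4.29%). In ESC-2i medium, with the single cells at the floor of 3 molecules, the pools exceeded them 5.04-fold for Dusp6 and 1.76-fold for Dusp4. The intervals of these 2 genes started at 3.91-fold and 1.25-fold. Etv5 was 1.81-fold higher in the pools (1.52 to 2.18), and 38.8% of genes were at least 2-fold higher there. Fos was 4.63-fold lower in the pools than in the ESC-2i cells (1.18 to 21.6), the 1 member at least 2-fold lower beside 15.0% of genes. Pool 2 exceeded pool 1 by 2.01-fold for Dusp6 (1.00 to 4.25), the 1 member at least 2-fold higher (7.73% of genes), while Spry4 and Ier3 were at least 2-fold lower (9.35%). All these shares are of genes with at least 20 molecules in the 2 sets together. Of the members named here as past 2-fold, only Dusp6 and Spry2 reached that limit. For Dusp6 the 4.63-fold difference between the 2 sets of ESC-FCS cells was thus larger than the 2.58-fold difference between the pools of the 2 media. For Egr1, the ESC-FCS libraries ranged from 0.176 to 0.670 per 10000 and the ESC-2i libraries from 0 to 0.0543, without overlap.

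NSC, which were given EGF and bFGF, were compared with both stem cell populations. They also differed from both in cell type, in the absence of LIF and in the coating of the dish. The parts of these and of the growth factors in any difference cannot be told apart. Relative to ESC-FCS cells, Egr1 was 38.8-fold higher in NSC (14.7 to 145), Fos 22.9-fold (7.36 to 115), Dusp6 12.3-fold (6.13 to 27.9), Etv4 5.22-fold (0.995 to 51.5), Spry2 4.10-fold (1.76 to 10.7) and Etv5 1.98-fold (1.45 to 2.71). Spry4 was at 1.03-fold (0.390 to 2.61) and Phlda1 at 1.99-fold (0.337 to 13.6). In all, 5 members were at least 2-fold higher. Of the 6 members with at least 20 molecules, 4 were (Dusp6, Spry2, Egr1 and Fos), beside 20.9% of 3600 genes, and none was at least 2-fold lower, beside 18.4%. The median log2 ratio of the 6 was 2.83 and that of all genes tested 0.05. These folds use the main ESC-FCS cells, the lowest of the ESC-FCS libraries for Dusp6 and Spry2. The control cells held 1.84 per 10000 of Dusp6 and 1.12 of Spry2 (0.725 to 1.65). NSC held 4.87 and 1.45 (0.908 to 2.19), so the intervals of Spry2 overlapped.

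Relative to ESC-2i cells, 7 members were at least 2-fold higher in NSC. Egr1 was 126-fold higher (34.0 to 1055), Spry4 21.8-fold (3.02 to 957), Fos 15.9-fold (7.15 to 41.8) and Spry2 7.62-fold (3.15 to 21.1). Dusp6 was 59.8-fold higher with ESC-2i at the floor of 3 molecules, and its interval started at 47.5-fold. Of the 5 with at least 20 molecules, 4 were at least 2-fold higher, beside 19.3% of 4803 genes, and none was at least 2-fold lower, beside 24.3%. Both contrasts share the NSC. Per ERCC molecule, every log2 ratio of NSC to ESC-FCS fell by 1.34, which turned Spry4 (−1.29), Etv5 (−0.36) and Phlda1 (−0.35) to below 0 and left Egr1, Fos, Dusp6 and Spry2 above it. Median-of-ratios factors lowered every ratio by 0.31, more than the log2 ratio of Spry4.

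Other differences went with the NSC. The list of dissociation and heat stress genes summed to 15.6 per 10000 in NSC, 56.4 in ESC-2i and 61.4 in ESC-FCS cells, but its genes did not move together. Hsp90aa1, which carried the sum, held 8.36 per 10000 in NSC, 45.3 in ESC-2i and 43.0 in ESC-FCS cells, whereas Hsph1 was 2.21-fold higher in NSC than in ESC-2i (1.48 to 3.29) and 1.65-fold higher than in ESC-FCS cells (1.09 to 2.52). The part of handling in the Egr1 and Fos levels was not tested. The 2 library batches of NSC held 3.26 and 6.66 per 10000 of Dusp6, 1.504 and 4.72 of Fos and 5.14 and 7.91 of Etv5. Egr1 had 51 and 53 molecules in them. In each of the 4 pairs of batches Dusp6, Egr1 and Fos were higher in NSC than in ESC-FCS. Of all genes tested, 19.4% were at least 2-fold higher and higher in all 4. The part of library batch in these levels was not tested.

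The cells show whether a level came from many cells or few. A molecule of Egr1 was found in 36 of 41 NSC (87.8%), 4 of 33 ESC-FCS cells (12.1%), 2 of 33 ESC-2i cells (6.06%) and 5 of 42 control cells (11.9%). No NSC held more than 10. NSC had the fewest molecules per cell, and when each cell was thinned to 2000 molecules the mean chance of seeing Egr1 was 71.6% in NSC, 2.63% in ESC-FCS, 0.984% in ESC-2i and 4.28% in the control cells, so NSC stood highest at equal depth too. Cells under 2000 molecules were left out, which kept 33 NSC, 32 ESC-FCS, 33 ESC-2i and 38 control cells.

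Dusp6 was found in 0 of 33 ESC-2i cells, 8 of 33 ESC-FCS cells (24.2%), 19 of 42 control cells (45.2%) and 23 of 41 NSC (56.1%). After thinning, the shares were 0, 8.04, 28.3 and 42.8%. In NSC, 1 cell held 22 of the 74 molecules. Spreading these molecules over the cells in proportion to depth would have put Dusp6 into 31.7 of the 41 cells, more than the 23 seen, and without the highest cell the level of NSC was 3.55 per 10000. Fos was found in 24 of 41 NSC (58.5%), 5 of 33 ESC-2i cells (15.2%), 1 of 33 ESC-FCS cells (3.03%) and 4 of 42 control cells (9.52%), and after thinning in 43.0, 3.63, 1.43 and 4.44%.

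Etv5 was present in most cells of every population, in 32 of 33 ESC-2i cells (97.0%), 26 of 33 ESC-FCS cells (78.8%), 33 of 41 NSC (80.5%) and 37 of 42 control cells (88.1%). Thinned to 2000 molecules, the shares were 54.1% in ESC-2i, 49.2% in ESC-FCS, 70.8% in NSC and 61.8% in the control cells, so NSC stood highest at equal depth and not before. Spry2 after thinning was found in 3.41% of ESC-2i cells, 8.94% of ESC-FCS cells, 18.0% of control cells and 25.0% of NSC, and Spry4 in 0.404, 9.85, 3.98 and 9.14%.

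**Figure D4:**
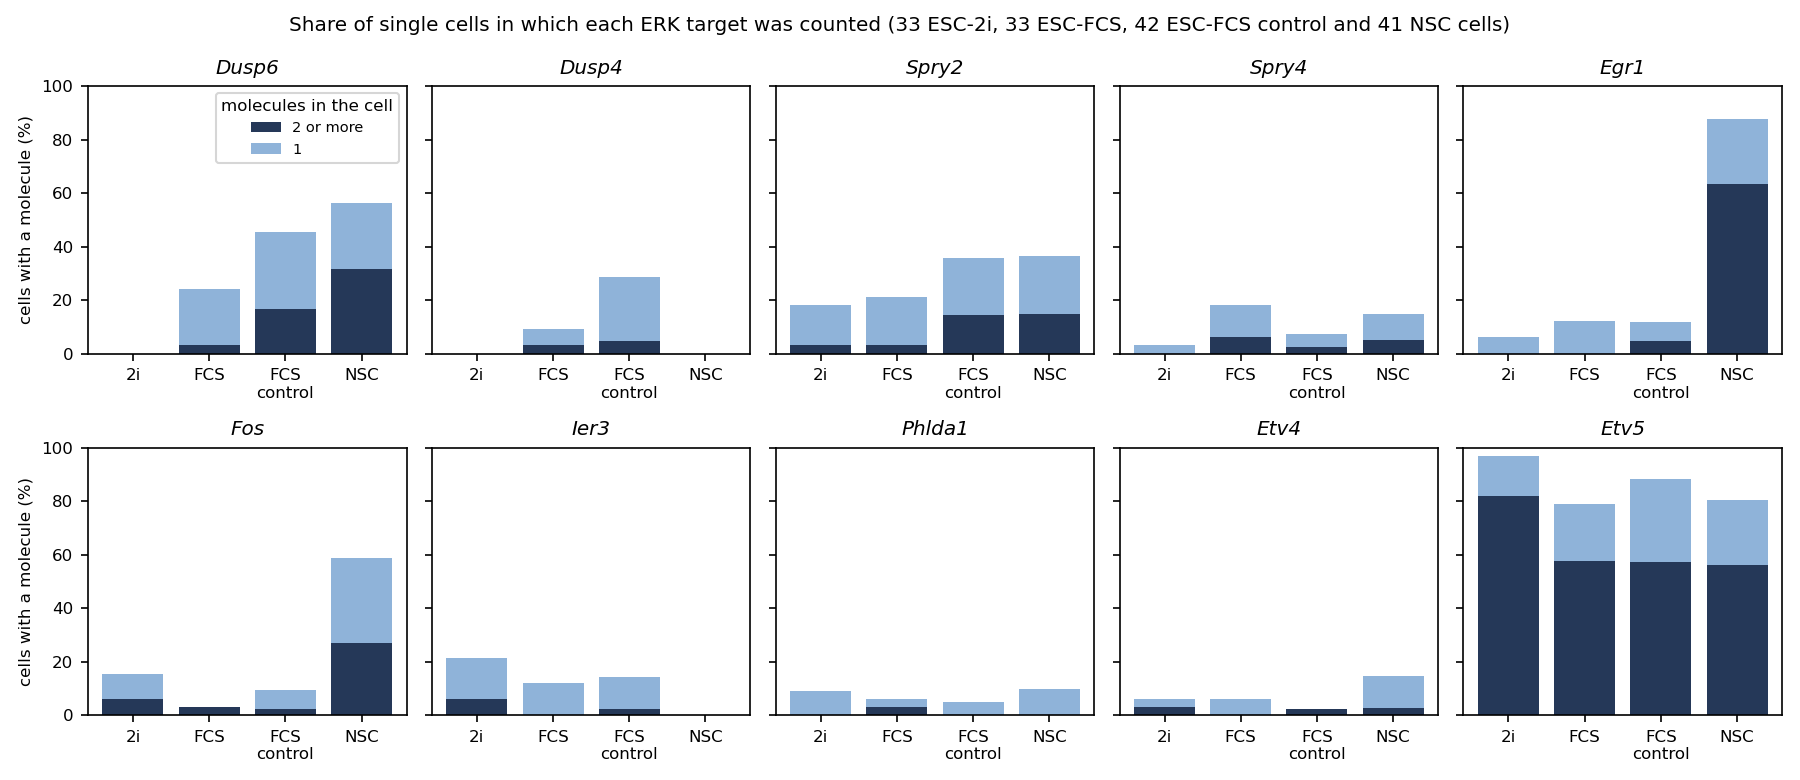
Share of cells (%) in which each of the 10 genes was counted, for 33 ESC-2i, 33 ESC-FCS, 42 ESC-FCS control and 41 NSC cells without thinning, split into cells with 1 molecule (light) and with 2 or more (dark). Egr1 was counted in 87.8% of NSC and at most 12.1% of the other cells, and Etv5 in 78.8% or more of every population.

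Etv5 held 149 of the 183 molecules of the 10 members in ESC-2i cells and 98 of 364 in NSC. Without Etv5, the other 9 members summed to 34 molecules in ESC-2i cells, 50 in ESC-FCS cells, 266 in NSC and 109 in the control cells. The median cell had 0.549 per 10000 in ESC-2i, 1.28 in ESC-FCS, 3.39 in the control and 12.5 in NSC. No molecule of the 9 was seen in 15 ESC-2i cells, 10 ESC-FCS cells, 8 control cells and 2 NSC. By library batch the sum was 0.860 and 0.980 per 10000 in ESC-2i cells, 1.27 and 1.41 in the ESC-2i pools, 2.07 and 2.39 in ESC-FCS cells, 3.94 and 6.33 in the control cells, 5.14 in the ESC-FCS pool, and 14.0 and 21.4 in NSC. The 3 states did not overlap in this sum, which leaves out the member that was higher in ESC-2i in 8 of the 9 pairs of libraries. With Etv5 the stem cell media overlapped. The sum of all 10 ranged from 4.74 to 9.01 per 10000 in ESC-2i and from 4.38 to 11.4 in ESC-FCS. In the NSC batches it was 19.2 and 29.3. No test was made because no replicate cultures are named.

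The ends of the transcripts were read at the same sites in most libraries. In NSC 72 of 74 molecules of Dusp6 lay at 1 site, chr10:99267483, 6 bases before the annotated end printed above, as did 40 of 41 in the control cells and 19 of 19 in the ESC-FCS pool. Etv5 used the site 7 bases before its annotated end for 94.0 to 98.6% of its molecules in every library. For Egr1, sites at −7 and −20 bases from the end held 49 and 36 of the 104 NSC molecules, and 10 more lay at −306. Spry4 used a pair of sites in ESC-FCS cells, with 7 molecules at −22 and 6 molecules at −2727 bases from the end.

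In the control cells and the ESC-FCS pool, Dusp4 was read mostly beyond its annotated end. In ESC-FCS cells 3 of 4 molecules lay within 20 bases of the end, and in the ESC-2i pools 2 of 6 and 4 of 8. A site about 2 kb downstream (chr8:34821951, 2057 bases past the end) held 12 of 15 molecules in the control cells, 20 of 24 in the ESC-FCS pool, 1 of 4 in ESC-FCS cells, and 3 of 6 and 1 of 8 in the ESC-2i pools. Where only annotated ends and terminal exons were counted, 2 members in place of 4 were at least 2-fold lower in ESC-2i than in ESC-FCS cells. Dusp4 and Egr1 then held 3 or fewer molecules in both populations, so no fold was given for them.

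Other genes of the pathway were described from lists, by how many had at least 20 molecules in the pair of populations and passed 2-fold. Of 14 such pathway components, from ligand to kinase, 1 was lower in ESC-2i than in ESC-FCS cells and 1 higher. Of all genes tested, 8.17% were lower and 14.5% higher. Mapk3, which encodes ERK1, had 17 and 23 molecules and was 2.20-fold lower (1.12 to 4.38), and the adaptor Grb2 had 40 and 7 and was 3.52-fold higher (1.56 to 9.30). The ligand Fgf4 was 1.89-fold higher in ESC-2i (80 and 26 molecules, 1.20 to 3.07) and was above ESC-FCS in all 9 pairs of libraries, whereas the GTPase Hras was 1.51-fold lower (55 and 51 molecules, 1.01 to 2.25). Mapk3 and Hras were lower in 7 of the 9 pairs. Over the 9 pairs, Braf and Shoc2 were lower in all and Fgf4, Grb2 and Rps6ka1 higher in all, of 25 with enough molecules. Of all genes tested, 8.48% were lower in all 9 and 14.6% higher in all 9.

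Among other feedback inhibitors, only Dusp9 had enough molecules in the main cells. This phosphatase of ERK had 6 molecules in ESC-2i and 30 in ESC-FCS cells, 8.13-fold lower (3.33 to 23.9), and none in NSC. The control cells held 28 (1.26 per 10000), the ESC-FCS pool 48 (2.68) and the ESC-2i pools 4 and 18 (0.0834 and 0.364), again without overlap of the media. Spry1, also a Sprouty gene, was also lower in all 9 pairs, with 1, 1 and 4 molecules in the ESC-2i libraries and 2, 16 and 21 in the ESC-FCS libraries. Dusp16, which acts mainly on JNK, was higher in all 9 with 15, 39 and 61 against 1, 4 and 5. In the pools, against the ESC-FCS pool, 5 of 8 of this list were at least 2-fold lower and 2 higher, beside 19.4% and 31.9% of all genes tested.

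Of 4 other immediate early genes tested in the main cells, 1 was at least 2-fold lower, beside 8.17% of all genes tested. Junb had 11 and 14 molecules (2.07-fold lower, 0.872 to 5.03), Mcl1, an inhibitor of apoptosis, 199 and 237 (1.94-fold lower, 1.60 to 2.35), Jund 88 and 103 (1.90-fold lower, 1.42 to 2.56) and Ier2 42 and 35 (1.35-fold lower, 0.839 to 2.17). In the pools Mcl1 and Jund went the other way: against the ESC-FCS pool Jund was 2.15-fold higher in ESC-2i (1.52 to 3.14) and Mcl1 1.70-fold higher (1.36 to 2.14), and against the control cells they were 1.42-fold (1.09 to 1.87) and 1.37-fold (1.14 to 1.66) higher. Over the 9 pairs of libraries, Ier2, Zfp36 and Klf6 were lower in ESC-2i in all, of 10 with enough molecules, and none was higher in all. The shares of all genes tested were 8.48% and 14.6%. Of other ETS factors only Gabpa was tested in the main cells (26 and 14 molecules, 1.14-fold higher, 0.575 to 2.37), and none of 8 kept 1 direction over the 9 pairs.

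Phlda2, an imprinted relative of Phlda1 listed among other ERK-dependent genes, had 1 molecule in ESC-2i and 28 in ESC-FCS cells, 45.5-fold lower (7.52 to 1861), with 39 and 34 molecules in the control cells and the ESC-FCS pool and 1 and 0 in the ESC-2i pools. In the same list Epha4, an ephrin receptor, was 7.69-fold higher in ESC-2i cells (25 and 2 molecules, 1.92 to 67.0), and Phlda3 (1.85-fold, 1.18 to 2.97) and the cyclin Ccnd1 (1.34-fold, 0.736 to 2.54) lay on the same side. The list therefore held 1 gene at least 2-fold lower and 1 higher of 4 tested, beside 8.17% and 14.5% of all genes tested. Against the ESC-FCS pool, Ccnd1 was 3.53-fold higher in the ESC-2i pools (1.82 to 7.86), whereas Phlda3 was 1.36-fold lower (0.954 to 1.90). Over the 9 pairs, Phlda2 and Bcl2l11 were lower in all and Ccnd1 and Epha4 higher in all, of 8 with enough molecules. The shares of all genes tested were 8.48% and 14.6%.

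A list of serum-responsive actin and matrix genes was set beside these because serum went with the medium. Of 3 tested, 1 was at least 2-fold lower in ESC-2i cells, beside 8.17% of all genes tested. This was the matrix protein gene Ctgf, which had 7 and 19 molecules and was 4.41-fold lower (1.78 to 12.4). In the pools Ctgf was 9.84-fold higher in ESC-2i than in the ESC-FCS pool (3.79 to 36.4) and 2.88-fold higher than in the control cells (1.76 to 5.04), the opposite direction. Tpm1 (34 and 30 molecules, 1.43-fold lower, 0.848 to 2.41) and Vcl (19 and 14, 1.20-fold lower, 0.556 to 2.52) had intervals that included 1, although Vcl was 4.10-fold higher in ESC-2i in the pools (1.94 to 10.4), and none of the 5 with enough molecules kept 1 direction over the 9 pairs. Of the 6 stress genes tested, the heat shock gene Hspb1 was 2.08-fold lower in ESC-2i (230 and 294 molecules, 1.74 to 2.48). The parts of serum and of handling in the members' levels were not tested.

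Markers of primitive endoderm and trophectoderm were highest in the ESC-2i pools. Primitive endoderm markers summed to 0.529 per 10000 in ESC-FCS cells, 0.733 in ESC-2i cells, 0.223 in the ESC-FCS pool, 0.134 in the control cells, and 3.09 and 2.38 in the ESC-2i pools, carried by Lama1, which was 16.1-fold higher in the ESC-2i pools than in the ESC-FCS pool (5.46 to 78.7), while Gata6, Sox17 and Sox7 were at 0 in every library. Trophectoderm markers summed to 0.0658 to 3.40, carried in the stem cells by Tfap2c and highest in the ESC-2i pools. Mesoderm markers did not exceed 0.167 per 10000 in any library and fibroblast markers 0.0658. The part of these markers in the levels of the members was not tested.

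Over 11 libraries (2 batches each of the 4 sets of cells, and the 3 pools), the genes whose level was most like the sum of the 10 members were Ndfip1 (Pearson r = 0.93), Map4k4 (0.93), Phgdh (0.93), Tspan5 (0.93) and Lin7c (0.89), of 2755 genes compared. Without Etv5 in the sum they were Gnas (0.95), Dusp6 itself (0.95), Egr1 itself (0.94), Phgdh (0.93) and Rhoq (0.93). Etv5 had r = 0.25 with the sum of the other 9. Both NSC batches hold the highest sums of the 11 libraries, and the sum of 10, carried by Etv5 in the ESC-2i pools, was 8.32 and 9.01 per 10000 there, above the ESC-FCS cells (4.38 and 6.95), so a like pattern does not mean a low level in ESC-2i.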

How the data were processed

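Counts were used as deposited: the authors aligned the reads with GSNAP to GRCm38 with ERCC sequences, assigned polyadenylation sites to Ensembl genes and counted unique molecular identifiers and reads per site (the submitters' processing notes name HTSeq and R 3.0.2), with a table of molecules per gene for 107 cells of 144. Values of the control cells and pools were summed over sites here, without antisense sites. This sum and the table differed in 4 of 2111752 entries. Of 19736 gene identifiers, 19321 matched a symbol, and 0 columns belonged to other samples.

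Molecules were summed per population and divided by all molecules on genes, mitochondrial genes included. Levels carry exact Poisson and ratios exact conditional (Clopper-Pearson) 95% intervals (scipy 1.17.1, Python 3.11.15). PCR copies of a molecule are collapsed by identifiers, but intervals still cover counting error only. A gene with 0 molecules in a group was compared with a floor of 3 molecules over the group, and no fold was given where both groups held 3 or fewer. A fold at the floor does not cover counting error in the other group, and its interval can start lower. Genes were counted at 2-fold with at least 20 molecules in the 2 groups together. Thinning to 2000 molecules used the hypergeometric probability per cell. Patterns used log2(molecules per 10000 + 0.1) of genes with at least 50 molecules. TMM factors came from edgeR 4.0.16. The ratio script was tested on simulated data. In the files per sample the names of the columns for the class of a site and its distance from an annotated end are exchanged, and these were read by content, while the columns of molecules and reads were used as named. Reference positions of a site differ by a few bases between libraries because sites were merged separately, and sites within 12 bases were joined.

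The members and lists were chosen with earlier results of these data known. All 10 members are described, and from each other list the up to 2 highest and 2 lowest ratios are named. Genes lower or higher over the 9 pairs of libraries, and the Dusp4 site, were named after their values were seen. The comparison of 9 pairs, the exchange of ESC-FCS libraries and the removal of the highest cell in the NSC contrasts were also added then.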

Additional observations from a re-analysis of the deposited data

How the results depend on the processing

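Leaving out or changing 1 choice moved 32 log2 ratios of members beyond the interval of their counts, reversed 1 and left 291 within it. Etv4 in NSC against ESC-2i turned to −1.04 with NSC library batch 1 and ESC-2i library batch 2. Of 60 shares of cells 22 moved and 38 did not. The 4 members at least 2-fold lower in ESC-2i than in ESC-FCS cells became 1 with batch 1 of both, 2 with ESC-2i batch 1 and ESC-FCS batch 2, 2 with ESC-2i batch 2 and ESC-FCS batch 1, 2 with annotated ends and terminal exons only, and 2 without the highest cell. In each of these settings Dusp4 and Egr1 held 3 or fewer molecules in both groups, so no fold was given for them. The 0 at least 2-fold higher became 1 when each cell weighed the same, 1 with batch 2 of both, 1 in reads and 1 with annotated ends only. In NSC against ESC-FCS the 0 members lower became 3 per ERCC molecule, and 1 with NSC batch 2 and either ESC-FCS batch. In NSC against ESC-2i the 0 became 1 with NSC batch 1 and ESC-2i batch 2. In the pools against the ESC-FCS pool, the 0 higher became 1 with median-of-ratios factors and 3 in reads, and against the control cells the 1 higher became 0 to 1 without either ESC-2i pool and 2 in reads. The 0 members higher in all 9 pairs became 2 in reads. Etv5 rather than a rare member gave the extra call with median-of-ratios factors.

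Over all genes of the main cells, the 409 lower and 725 higher became 849 and 1355 with at least 10 molecules, 110 and 217 with at least 50, 1507 and 1935 with at least 1, 954 and 1311 at 1.5-fold and 147 and 311 at 3-fold, by construction of these limits. No paired analysis was possible because each population gives 1 pooled value with no test, and the numbers of the cells only name them and tie no cell to a cell of another population. Depth limits the rare members most: in ESC-2i cells 0 molecules of Dusp6 and Dusp4 still allow up to 0.1001 per 10000.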

Other observations

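In the 41 NSC, Egr1 and Fos were counted together in 22 cells, Egr1 alone in 14, Fos alone in 2 and neither in 3. Their levels per 10000 were correlated at r = 0.40 (Pearson) and rho = 0.39 (Spearman) over the cells, as a description of 1 culture with shared depth, and the same cell held the most of both, 10 molecules of Egr1 and 7 of Fos. Dusp6 and Egr1 had r = −0.05 over the same cells, and Fos and Etv5 r = 0.33. Myc, a growth-related transcription factor, had 27 molecules in NSC and none in ESC-FCS cells. With ESC-FCS at the floor of 3 molecules it was 13.4-fold higher in NSC, with an interval that started at 10.2-fold. Etv1, the third member of the PEA3 group, had 46 and 7 molecules and was 9.81-fold higher in NSC.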
